A study of Mus musculus with 6 samples.

Results

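The genes described here encode subunits of the oxidative phosphorylation system, the 4 respiratory chain complexes and the ATP synthase of the inner mitochondrial membrane. They were followed in prefrontal cortex of mice lacking Nrf2, the transcription factor made from the gene Nfe2l2, and of wild type mice. The set held 47 genes: 16 of complex I, 4 of complex II, 6 of complex III, 10 of complex IV, 10 of complex V and Cycs, the gene for the mobile carrier cytochrome c. A probe was taken when its gene name on the array was one of these genes or its transcript was a RefSeq transcript of one, which gave 105 probes of the 150305 on the array. All 105 were tested, among 17560 coding genes with a tested probe. The samples were 3 from Nrf2 gene knockout mice and 3 from wild type mice, all male, of the outbred ICR stock and 3 to 4 months old, with no treatment named in the labels. The labels do not state which part of Nfe2l2 was deleted, or that the samples of a genotype came from separate animals, so the p-values reflect only variation among these samples, possibly technical. Each sample was hybridised in one colour to its own array.

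As background, complexes I and II pass electrons from NADH and succinate to ubiquinone, complex III passes them to cytochrome c, and complex IV, cytochrome c oxidase, passes them to oxygen. Complexes I, III and IV pump protons, and complex V, the ATP synthase, uses the returning protons to make ATP. Most subunits are encoded in the nucleus and a few in mitochondrial DNA, and neurons draw most of their ATP from this system. Nrf2 binds the antioxidant response element (ARE) with small Maf proteins and is best known for detoxification and glutathione genes. In mouse and human cells, subunit genes are known targets of the nuclear respiratory factors NRF1 and GABP, and NRF1 is a different protein from Nrf2.

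Promoter windows of 250 bases before to 50 bases after the annotated start came from RefSeq (GRCm38.p6), and 42 windows matched 38 of the genes. The ARE core, TGACNNNGC on either strand, lay in 14.3% of these windows, against 12.4% of 32851 windows of all genes. The 6 genes with that core are shown because Nrf2 is the protein removed from the knockout mice, with the core in capitals as it reads on the gene's own strand. The printed stretches lie at chrX:37191309-37191369 (minus strand), chr6:126849138-126849198 (minus), chr1:92473711-92473771 (minus), chr17:66101593-66101653 (minus), chr1:36691471-36691531 (plus) and chr16:91931778-91931838 (minus), in the order printed.
Ndufa1 promoter: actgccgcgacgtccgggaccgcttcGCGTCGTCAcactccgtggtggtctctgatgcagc
Ndufa9 promoter: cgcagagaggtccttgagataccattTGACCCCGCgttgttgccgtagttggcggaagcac
Ndufa10 promoter: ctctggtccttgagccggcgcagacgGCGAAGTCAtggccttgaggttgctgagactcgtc
Ndufv2 promoter: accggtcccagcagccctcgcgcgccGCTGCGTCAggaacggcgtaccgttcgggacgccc
Cox5b promoter: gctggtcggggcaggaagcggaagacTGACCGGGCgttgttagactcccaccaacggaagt
Atp5o promoter: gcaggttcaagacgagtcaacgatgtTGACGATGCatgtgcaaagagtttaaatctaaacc

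The looser form TGANNNNGC, which contains every match of the core, lay in 42.9% of the windows, against 41.3% of all windows. Several other motifs are tied to mitochondrial genes. The ETS core bound by GABP, CCGGAAG, lay in 23.8% of the windows, against 8.86% of all. The first 8 letters of the NRF1 motif, GCGCATGC, lay in 9.52%, against 2.71% of all, and those of the YY1 motif, AAGATGGC, in 14.3%, against 2.75% of all. These 2 shorter forms were chosen after the data were seen. The NRF1 form was found in Sdhb, Uqcrc1, Cox6a1 and Cycs. CCAAT boxes lay in 35.7% of the windows, against 37.4% of all. The whole Cox6a1 window is shown because Cox6a1 had the brightest probe of complex IV and its window held an NRF1 and an ETS core, both in capitals, with overlapping NRF1 matches on the 2 strands merged (chr5:115348909-115349208, minus strand).
Cox6a1 promoter: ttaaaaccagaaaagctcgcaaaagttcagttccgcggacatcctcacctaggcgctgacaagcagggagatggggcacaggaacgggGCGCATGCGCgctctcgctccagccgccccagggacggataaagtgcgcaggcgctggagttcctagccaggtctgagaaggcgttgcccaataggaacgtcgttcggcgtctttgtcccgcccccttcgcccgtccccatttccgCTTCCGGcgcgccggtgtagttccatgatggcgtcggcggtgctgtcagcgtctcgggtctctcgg

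The probes themselves are 60 bases long, and 46 of the 47 genes had at least 2, up to 4 each. One design is from Agilent's catalogue and the other is custom. Probes of a gene are lettered from the highest mean signal down, and the value of a gene is that of its probe A unless another letter is given. In 12 genes, 13 pairs of probes shared at least 20 bases, so their agreement is partly that of one target. The Ndufs8 pair, which shared 55 bases (in capitals), is shown as an example. Probe B lies at chr19:3911200-3911568 (minus strand, mm9, as the files give it), a span longer than the probe, so that it crosses an intron.
Ndufs8 probe A: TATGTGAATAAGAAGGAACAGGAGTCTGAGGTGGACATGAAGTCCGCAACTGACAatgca
Ndufs8 probe B: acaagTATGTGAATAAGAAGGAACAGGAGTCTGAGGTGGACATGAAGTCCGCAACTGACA

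Further probes are shown for genes whose probes are set side by side in the results. In mm9 they lie at chr10:127522569-127522628 (Atp5b probe C, plus strand), chr10:127521478-127522156 (Atp5b probe D, plus), chr4:140522514-140527081 (Sdhb probe B, plus), chr11:95934924-95934983 (Atp5g1 probe A, minus) and chr6:50515255-50515314 (Cycs probe C, minus).
Atp5b probe C: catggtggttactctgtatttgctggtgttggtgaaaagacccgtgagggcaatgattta
Atp5b probe D: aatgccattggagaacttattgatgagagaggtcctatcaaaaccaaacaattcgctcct
Sdhb probe B: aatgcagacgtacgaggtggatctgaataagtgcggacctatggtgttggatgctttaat
Atp5g1 probe A: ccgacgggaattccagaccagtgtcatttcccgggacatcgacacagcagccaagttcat
Cycs probe C: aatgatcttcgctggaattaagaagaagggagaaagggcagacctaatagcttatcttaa

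Levels below are log2 processed signals from which the 75th percentile of the same array was subtracted, so 0 is that percentile. Probes differ in how well they bind, so brightness served only to choose a probe and to place the set among all coding genes. No gene's level is compared with another's. On all 6 arrays, 101 of the 105 were called well above background, and 3 probes lacked 1 array because of an outlier flag. The levels of probes A, averaged over the 6 arrays, ran between 3.04 and 9.09. Among all coding genes the lowest lay at percentile 68.3 and the median of the set at percentile 97.5. The shares of all coding genes given below are not matched for brightness. The coding transcript of Nfe2l2 checked the labels. A probe that was well above background on all 6 arrays stood at −3.66 ± 0.17 in the knockout and 0.41 ± 0.07 in wild type (SD, n = 3 each), a difference of −4.08 (SE 0.12, limma, Benjamini-Hochberg adjusted p = 6.13e-04). A further 2 coding probes of Nfe2l2 were not well above background on any knockout array. Where the probes lie relative to the deletion is not given. All 8 neuron markers were well above background on all 6 arrays, with a summed signal of 1104 to 1153 times the 75th percentile in the knockout and 1111 to 1178 in wild type. Bulk tissue cannot separate fewer cells of a type from less RNA per cell.

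By the scan headers the arrays came from 2 slides. Slide 1 held knockout 1 and the 3 wild type arrays, and slide 2 held knockouts 2 and 3, which also had the lowest local backgrounds (19 and 18, against 24 in knockout 1 and 23 to 24 in wild type). Values with slide as a block are therefore given beside the results. With this layout they rest on knockout 1 alone and equal the difference between knockout 1 and the mean of the wild type arrays.

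No subunit gene was called different between the genotypes. At a Benjamini-Hochberg adjusted p of 0.05 over all tested probes, limma called 0 of the 105 probes and 0 of the 47 genes, where 0.00944% of all tested probes and 0.0171% of coding genes were called. At an unadjusted p under 0.05 the count was 0 of 47 genes, against 12.4% of all coding genes. The log2 change, knockout minus wild type, was above 0 in 36 genes (76.6%) and below 0 in 11, against 48.7% of coding genes above 0. Its median was 0.03, against −0.01 over all coding genes. The values ran between −0.16 for Uqcrfs1 and 0.30 for Ndufs8, and 35 of the 47 lay within 0.1 of 0. At probes A the 95% interval lay wholly within a 1.5-fold change either way for 45 genes, and within a 2-fold change for all 47. The exceptions to the narrower bound were Ndufs8 and Atp5g1. Of all 105 probes, 99 had an interval within 1.5-fold and 103 within 2-fold. Slide was not in this fit, so the intervals do not bound a change by genotype apart from slide. With slide as a block the median was −0.05, against −0.06 over all coding genes, with 18 genes (38.3%) above 0 and 29 below, against 34.1% of coding genes above 0. There limma called 0 genes too, with 0 at an unadjusted p under 0.05.

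The values of the knockout and wild type arrays overlapped for most genes. In 3 genes, Ndufa10, Ndufa2 and Cox5a, all knockout values lay above all wild type values, and in Ndufa4 all lay below. Non-overlap of this kind held for 19.4% of all coding genes, with 6.47% higher and 12.9% lower in the knockout. The margin could be narrow. In Cox5a, knockout 1 and wild type 1 both rounded to 7.436, and in Ndufa10 knockout 1 stood at 5.729 and wild type 3 at 5.709. At probe B of each of these genes the groups overlapped.

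**Figure D1:**
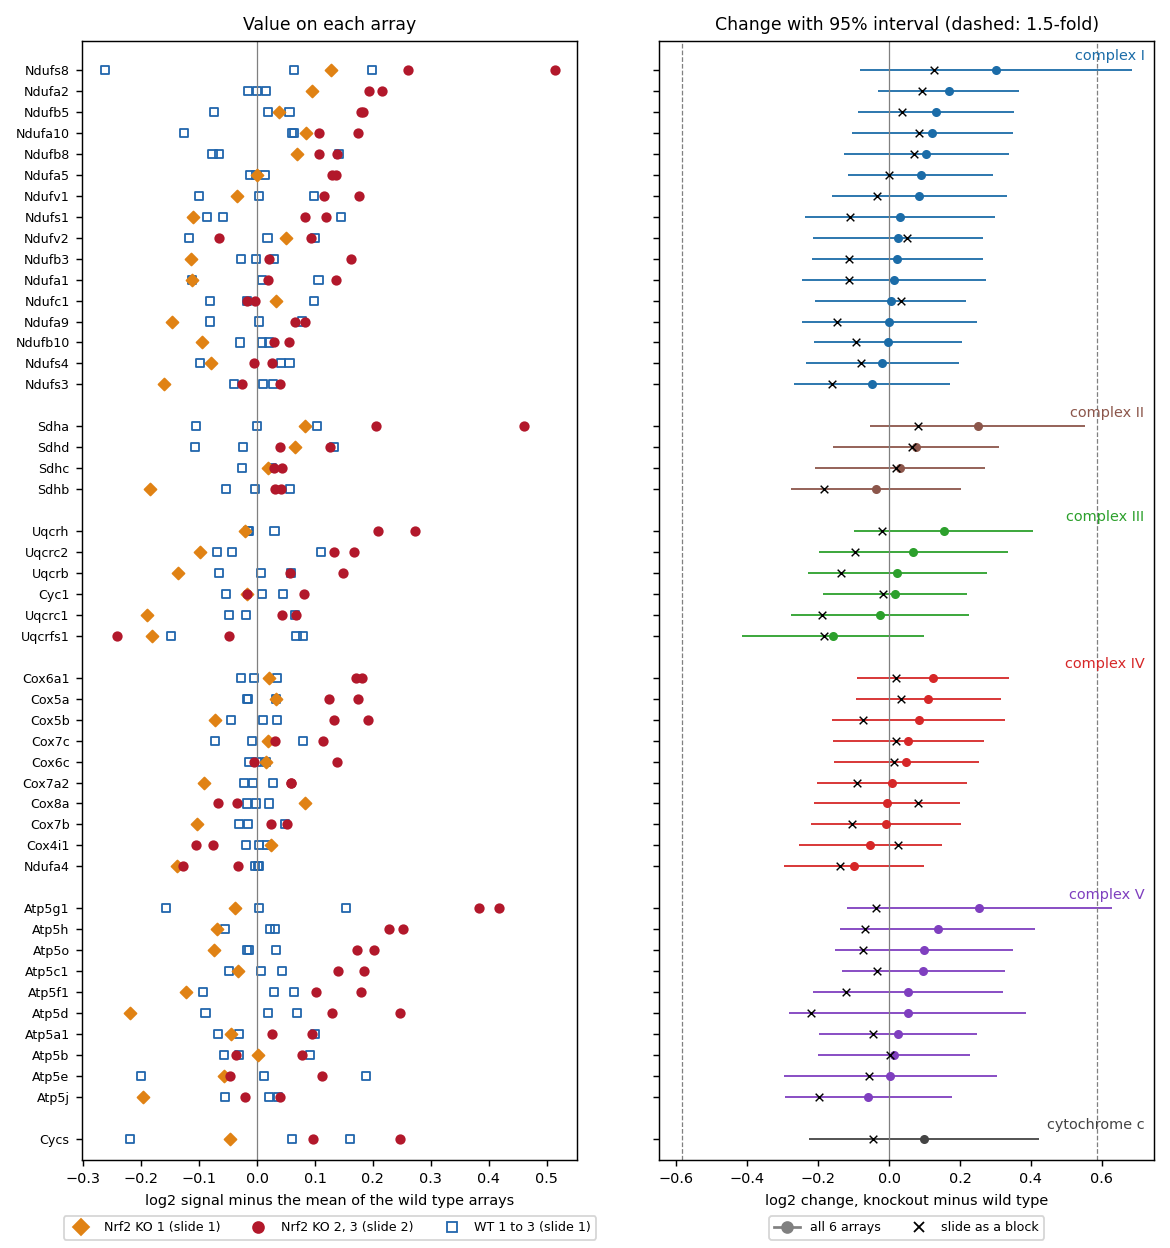
The left panel plots log2 signal minus the wild type mean for each of the 47 genes (rows, grouped by complex), with diamonds for knockout 1, filled circles for knockouts 2 and 3 and open squares for wild types 1 to 3. The right panel plots the log2 change with its 95% interval, with crosses for the change with slide as a block; 36 points lie above 0, all 47 intervals include 0, and 45 stay between the dashed 1.5-fold lines.

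Complex I, the NADH dehydrogenase, had 13 genes above 0 and 3 below, with a median change of 0.03, or −0.02 with slide as a block. The lowest adjusted p among its probes A was 0.367. Ndufs8, an iron-sulfur subunit of the arm that passes electrons to ubiquinone, had the highest change of the 47. It stood at 3.02, 3.15 and 3.41 in knockouts 1, 2 and 3, against 2.96, 2.63 and 3.09 in wild types 1, 2 and 3. Wild type 3 lay between knockouts 1 and 2, so the groups overlapped, and the difference of 0.30 (SE 0.16, limma adjusted p = 0.384) was 0.13 with slide as a block. Its second probe, which shares most of its bases, gave 0.14 (SE 0.13, limma adjusted p = 0.573).

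Ndufa2, an accessory subunit of the matrix arm, had the smallest unadjusted p of the 47 genes (0.0871). Its levels were 6.15, 6.25 and 6.27 in the knockout arrays, against 6.04, 6.07 and 6.06 in wild type. All knockout values were above all wild type values, and the difference was 0.17 (SE 0.08, limma adjusted p = 0.367, 0.09 with slide as a block). Its custom probe B was split otherwise: 2.10, 2.10 and 2.10 in the knockout, against 2.33, 1.28 and 1.36 in wild type, where wild type 1 lay above every knockout value.

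Ndufb8, a membrane-arm subunit often used as a protein marker of assembled complex I, had the brightest probe of the complex. It stood at 7.13, 7.20 and 7.17 in the knockout, against 6.996, 6.985 and 7.204 in wild type, and wild type 3 was the highest of the 6 arrays. The difference was 0.11 (SE 0.10, limma adjusted p = 0.578). Ndufs3, a subunit of the same electron-passing arm as Ndufs8, had the lowest change of the complex. Its levels of 6.47, 6.67 and 6.61 in the knockout compare with 6.64, 6.59 and 6.66 in wild type. Knockout 1 was the lowest of the 6 arrays and knockout 2 the highest, and the difference was −0.05 (SE 0.09, limma adjusted p = 0.796).

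The other 12 genes of complex I spanned −0.02 for Ndufs4 to 0.13 for Ndufb5. Ndufb5, an accessory membrane-arm subunit, also held the smallest unadjusted p of the 105 probes. Its catalogue probe B read 3.07, 3.29 and 3.30 in the knockout, against 2.91, 2.84 and 2.99 in wild type, without overlap, a difference of 0.31 (SE 0.10, unadjusted p = 0.0226, limma adjusted p = 0.311). Probe A of the same gene overlapped, with 3.78, 3.93 and 3.93 in the knockout and 3.77, 3.67 and 3.80 in wild type. Without knockout 1, where slide and genotype cannot be told apart, Ndufb5 probe B was the only one of the 105 called (0.952%), with a difference of 0.38 (SE 0.09, limma adjusted p = 0.0476, with a range of 0.0476 to 0.953 over 16 alternatives). In that fit 7.08% of all coding probes were called.

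Complex II, succinate dehydrogenase, is encoded wholly in the nucleus and also serves the citric acid cycle. Of its 4 genes 3 lay above 0, with a median of 0.05, or 0.04 with slide as a block. Sdha, the flavoprotein that oxidises succinate, stood at 4.25, 4.37 and 4.63 in the knockout, against 4.17, 4.06 and 4.27 in wild type. Only wild type 3 reached into the knockout values, and the difference was 0.25 (SE 0.13, limma adjusted p = 0.370, 0.08 with slide as a block). The other probes of Sdha, B and C, gave differences of 0.17 and 0.09.

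Sdhb, the iron-sulfur subunit, pointed the other way. Its levels were 6.91, 7.12 and 7.13 in the knockout, against 7.04, 7.09 and 7.15 in wild type, where knockout 1 lay below all other arrays, and the difference was −0.04 (SE 0.10, limma adjusted p = 0.860). The printed probe B gave −0.16 (SE 0.13). The membrane anchors Sdhc and Sdhd had changes of 0.03 and 0.08, and the fit of Sdhc left out wild type 1, whose spot carried an outlier flag.

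Complex III, which passes electrons to cytochrome c, had 4 of 6 genes above 0, a median of 0.02 and −0.12 with slide as a block, where all 6 were below 0. Uqcrh, the hinge protein that holds cytochrome c1, had both the brightest probe and the highest change of the complex. It stood at 7.45, 7.68 and 7.75 in the knockout, against 7.457, 7.459 and 7.503 in wild type. Knockouts 2 and 3 were above, and knockout 1 was just below, all wild type values, and the difference was 0.15 (SE 0.10, limma adjusted p = 0.466). The remaining probes of Uqcrh gave differences of −0.05 and 0.00.

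Uqcrfs1, the Rieske iron-sulfur protein, had the lowest change of the 47 genes. Its levels were 5.69, 5.83 and 5.64 in the knockout, against 5.94, 5.73 and 5.96 in wild type. Knockout 2 lay above wild type 2, so the groups overlapped, and the difference was −0.16 (SE 0.11, limma adjusted p = 0.464, −0.18 with slide as a block). The core proteins Uqcrc1 and Uqcrc2 gave −0.03 and 0.07, cytochrome c1 (Cyc1) 0.02 and Uqcrb 0.02.

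Complex IV, cytochrome c oxidase, had 6 of 10 genes above 0, a median of 0.03 and 0.02 with slide as a block. Cox6a1, the widely expressed form of subunit 6a, had the brightest probe of the complex and its highest change. Its probe A stood at 9.05, 9.21 and 9.20 in the knockout, against 9.023, 9.064 and 9.002 in wild type, a difference of 0.12 (SE 0.09, limma adjusted p = 0.486) in which knockout 1 lay within the wild type values. Its custom probe B lay on the other side, with 7.96, 7.84 and 7.81 in the knockout and 8.06, 8.04 and 8.02 in wild type, no overlap, and a difference of −0.17 (SE 0.09, limma adjusted p = 0.372). The 2 probes of this gene therefore gave no common direction.

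Ndufa4, first counted with complex I and now placed in complex IV, had the lowest change of the complex. It stood at 6.42, 6.52 and 6.43 in the knockout, against 6.56, 6.56 and 6.55 in wild type, all lower without overlap, with a difference of −0.10 (SE 0.08, limma adjusted p = 0.535, −0.14 with slide as a block). Its probe B, which shares 58 bases with probe A, gave −0.08. The nuclear-encoded subunits Cox4i1, Cox5a and Cox5b gave −0.05, 0.11 and 0.08. Cox7c read 7.55, 7.65 and 7.56 in the knockout, against 7.61, 7.46 and 7.52 in wild type, a difference of 0.05. Its catalogue probe B, fitted without the flagged wild type 1, gave −0.28 (SE 0.19, limma adjusted p = 0.472), with knockout 1 at 5.19 and knockouts 2 and 3 at 4.62 and 4.75, against 5.10 and 5.17 in wild types 2 and 3.

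Complex V, the ATP synthase, had 9 of 10 genes above 0 and a median of 0.05, but −0.06 with slide as a block, where 9 were below 0. Atp5b, the catalytic beta subunit of the F1 head, had the brightest probe and a difference near 0. Its probe A stood at 8.037, 7.999 and 8.112 in the knockout, against 7.978, 8.003 and 8.126 in wild type, a change of 0.01 (SE 0.09, 95% interval −0.20 to 0.23). The printed probes C and D of Atp5b gave 0.17 and 0.11, and all values of probe C were higher in the knockout, with 5.16, 5.10 and 5.23 in the knockout and 5.004, 4.889 and 5.100 in wild type.

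Atp5g1, one of the genes for the c ring that turns with proton flow, had the highest change of the complex at its probe A, and its other probe was dim. Probe A read 4.99, 5.41 and 5.44 in the knockout, against 5.18, 4.87 and 5.03 in wild type. Knockouts 2 and 3 were the highest arrays and knockout 1 was among the wild type values. The difference was 0.25 (SE 0.16, limma adjusted p = 0.429) and −0.04 with slide as a block. The custom probe B was well above background on 3 knockout and 2 wild type arrays, so it was tested only through the knockout, and its value is a description. It gave 0.84 (SE 0.34, limma adjusted p = 0.330), or 0.39 with slide as a block, with −4.25, −3.40 and −3.77 in the knockout and −3.98, −5.17 and −4.77 in wild type, where the groups overlapped.

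Atp5j, coupling factor 6 of the stator stalk, was the gene of the complex below 0. It stood at 6.92, 7.16 and 7.10 in the knockout, against 7.15, 7.06 and 7.14 in wild type, where knockout 1 was the lowest and knockout 2 the highest array, and the difference was −0.06 (SE 0.10, limma adjusted p = 0.763). The other 7 genes ran between 0.00 for Atp5e and 0.14 for Atp5h.

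Cycs read 5.34, 5.63 and 5.48 in the knockout, against 5.54, 5.16 and 5.44 in wild type, where the groups overlapped, and a difference of 0.10 (SE 0.14, limma adjusted p = 0.713). Its 4 probes gave 0.10, 0.09, −0.22 and −0.17. The first 2 share 40 bases and the printed probe C gave the lowest of the values.

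Across the set, knockouts 2 and 3 stood apart from knockout 1. The median over the 47 genes of the deviation from the wild type mean was −0.05 in knockout 1, 0.11 in knockout 2 and 0.09 in knockout 3, against 0.02, −0.05 and 0.03 in wild types 1, 2 and 3. Over all coding genes the medians were −0.06, 0.04 and 0.01 in the knockout, against 0.01, −0.03 and 0.03 in wild type. Of the 46 genes measured on all arrays, 38 (82.6%) were higher in both knockouts 2 and 3 than in knockout 1, against 55.2% of 17497 coding genes. In 20 genes (43.5%) both arrays of slide 2 lay above all 4 of slide 1, against 22.8% of coding genes, and in 2 (4.35%) both lay below, against 16.7%. On slide 1, knockout 1 lay below all wild type arrays in 20 genes (43.5%), against 38.4% of coding genes, and above all of them in 5 (10.9%), against 13.8%. For knockouts 2 and 3, slide and genotype cannot be told apart.

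**Figure D2:**
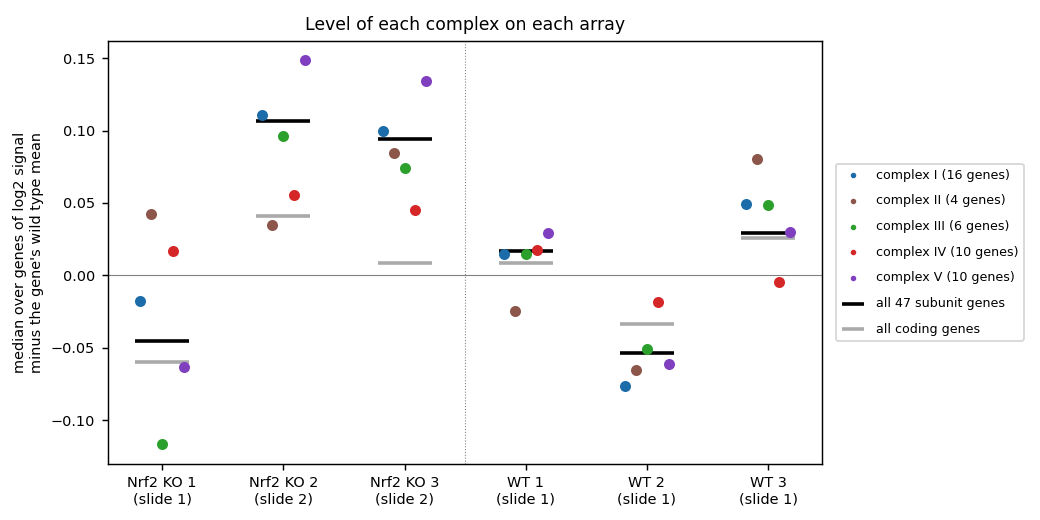
Median over genes of log2 signal minus the gene's wild type mean (y axis) on each array (x axis), by complex (dots), for the 47 genes (black bars) and all coding genes (grey bars). The set lies at −0.05 in knockout 1, 0.11 and 0.09 in knockouts 2 and 3, and −0.05 to 0.03 in wild type.

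By complex, the gap between these arrays was widest in complexes III and V. Complex V had −0.06 in knockout 1 and 0.15 and 0.13 in knockouts 2 and 3, and complex III had −0.12, 0.10 and 0.07. Complex IV stayed between 0.02 and 0.06 in the knockout arrays. These differences between complexes were not tested. Markers of red blood cells, which carry globin mRNA, had a summed signal of 558 to 628.2 times the 75th percentile in the knockout, against 413.3 to 545.8 in wild type, and all 5 were well above background on all 6 arrays. The log2 change was above 0 in 4 of the 5, and limma called 0 of them (lowest adjusted p = 0.307), with 3 higher at an unadjusted p under 0.05, against 2.93% of coding genes. With slide as a block their median was 0.28, with 0 at an unadjusted p under 0.05. Probes A of the microglia markers were below 0 in all 6, against 51.3% of coding genes. Their sums were 120.4 to 135.1 in the knockout and 126.6 to 140.4 in wild type. None of these 6 probes had an unadjusted p under 0.05, and with slide as a block 2 were above 0 and 4 below. Other probes of the same genes did not share the direction. Those of Csf1r, Cx3cr1, Tmem119 and C1qa gave 0.08 to 0.25, and those of Aif1 and P2ry12 gave −0.23 to −0.13. Astrocyte marker sums did not overlap, with 277.4 to 295.9 in the knockout and 296.2 to 310.1 in wild type. Of these 6 markers, 2 were above 0 and 4 below, and with slide as a block all 6 were below. Slc1a2, which had the brightest of their probes, gave −0.11 at probe A and 0.23 at probe C. Sums of the oligodendrocyte, endothelial and mural, choroid plexus and muscle markers overlapped, with 1 of 6 muscle markers above 0. The part of these cell types in the subunit values was not tested.

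The genes were read through catalogue and custom probes. Over the 105 probes, the 59 catalogue probes had a median change of 0.07, with 46 (78.0%) above 0. The 46 custom probes had 0.01, with 26 (56.5%) above 0. All coding catalogue probes had a median of 0.06, with 63.5% above 0. All coding custom probes had −0.02, with 44.25% above 0. With slide as a block the subunit medians were −0.03 for the catalogue probes, with 23 above 0, and −0.05 for the custom probes, with 18 above 0. The medians of all coding probes were then −0.003 for catalogue and −0.06 for custom probes. In the 46 genes with both designs, the catalogue probe was above the custom probe in 29 (63.0%), against 65.4% of 13660 coding genes, and the signs matched in 23 of the 46, against 8196 of the 13660. At the level of single probes, 7 were higher without overlap and 3 lower, against 9.44% higher and 9.69% lower of all coding probes, 19.1% in all. An unadjusted p under 0.05 was reached by 3 of the 105, all higher: Ndufb5 probe B, the dim Atp5g1 probe B and the custom probe B of Ndufv1. Ndufv1, a flavoprotein of the NADH-binding module, stood at 0.26 there (SE 0.11, limma adjusted p = 0.330). The share of all coding probes was 11.1%, with 4.11% higher. Atp5g1 probe B was tested only through the knockout, where it was high, so its place in this count is only a description.

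**Figure D3:**
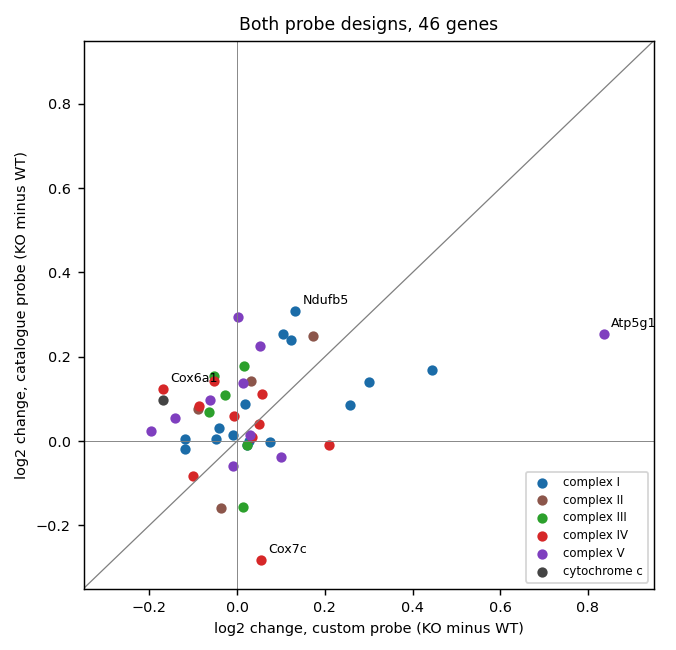
Log2 change at the brightest catalogue probe (y axis) against that at the brightest custom probe (x axis) for the 46 genes with both, with the line of equal change and colours by complex. Atp5g1 lies at 0.25 and 0.84, Cox7c at −0.28 and 0.05, and 29 genes lie above the line.

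The 6 genes with the ARE core in their promoter window, Ndufa1, Ndufa9, Ndufa10, Ndufv2, Cox5b and Atp5o, had changes of 0.00 to 0.12, with a median of 0.05, and all were above 0. With slide as a block 2 of them were above 0 and 4 below, with a median of −0.07. The 32 genes with a window and no core had a median of 0.05, with 22 above 0 and 10 below, or −0.04 with 12 above 0 with slide as a block. Of the 6, Ndufa10 was higher without overlap, with 5.73, 5.75 and 5.82 in the knockout and 5.71, 5.52 and 5.71 in wild type, a difference of 0.12 (SE 0.09, limma adjusted p = 0.511). The match is a string of letters, and binding was not measured.

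The rest of the pathway held no call among its tested genes either, with limma calling 0 in each list. The other nuclear subunits of complexes I to V (32 genes) had 22 above 0 and 10 below, with a median of 0.04 and −0.07 with slide as a block, and 0 at an unadjusted p under 0.05. Assembly factors, which insert cofactors and join modules, had 25 above 0 and 18 below of 43 tested, a median of 0.04 and −0.03 with slide as a block, with 2 lower at an unadjusted p under 0.05, against 9.46% of coding genes lower and 2.93% higher. Citric acid cycle enzymes had 12 of 17 above 0 and a median of 0.05, or −0.05 with slide as a block. Regulators of mitochondrial biogenesis had 8 of 25 above 0 and a median of −0.04, or −0.02 with slide as a block, 0.01 with scaling to the array median and 0.02 with the mean of a gene's tested probes. The last 2 lists had 0 genes at an unadjusted p under 0.05. None of the 13 subunits encoded in mitochondrial DNA was matched to a probe by gene name or transcript.

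**Figure D4:**
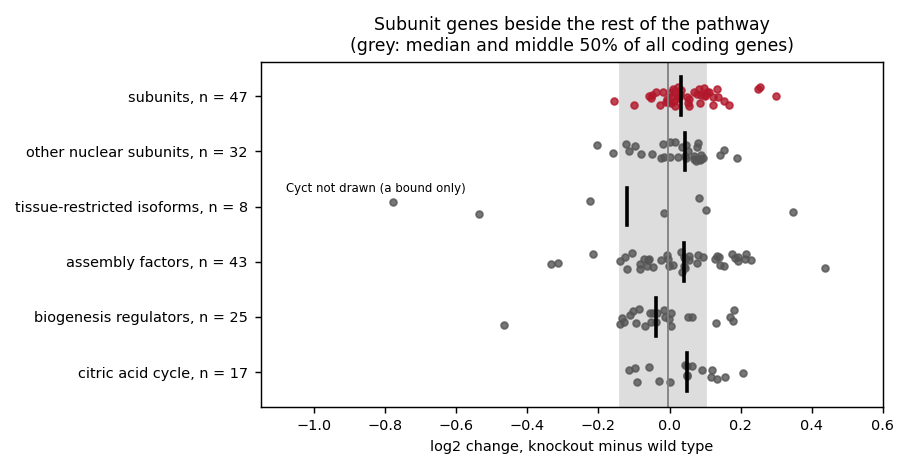
Log2 change, knockout minus wild type (x axis), of each gene (dots) in the 47 subunits and the other pathway lists, with list medians as black bars and the median and middle 50% of all coding genes in grey. List medians lie between −0.12 and 0.05, and Cyct is named at the edge without a dot, since only a bound was measured.

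Of 9 subunit isoforms grouped here as tissue-restricted, 8 were bright enough in this cortex to be tested. Among these 8, 3 were above 0 and the median was −0.12, or −0.11 with slide as a block. At an unadjusted p under 0.05 there were 1 higher and 3 lower, against 2.93% and 9.46% of coding genes. With slide as a block it was 1 of the 8. The 3 lower include Cyct, whose p-value rests on knockout values at background, so this count is only a description. Cyct, the testis form of cytochrome c and the counterpart of Cycs, was not well above background on any knockout array but was on all 3 wild type arrays, so it was tested only through wild type. It stood at −6.20, −6.81 and −6.51 in the knockout, against −4.35, −2.72 and −1.75 in wild type, at least 4.51-fold lower in the knockout than in wild type. That bound sets the wild type mean against the lowest well-above-background signal of each knockout array, or the probe's own where higher. Leaving out a wild type array, an alternative chosen after seeing the data, gave at least 7.36-fold without wild type 1, 4.17-fold without wild type 2 and 2.99-fold without wild type 3. The limma adjusted p was 0.307, computed on knockout values at background. With Cyct at its bound the median of the 8 genes is the same, since the gene remains the lowest.

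Cox6b2, the testis form of Cox6b1, had a custom probe A at 3.93, 3.17 and 3.05 in the knockout, against 4.20, 4.08 and 4.20 in wild type, a change of −0.78 (SE 0.23, limma adjusted p = 0.307). It was −0.23 with slide as a block, and its second probe, for another transcript, gave 0.08. Cox4i2, the lung form of Cox4i1, read 2.12, 1.62 and 1.55 in the knockout, against 2.31, 2.28 and 2.32 in wild type, a change of −0.54 (SE 0.16, limma adjusted p = 0.307, −0.18 with slide as a block). In both genes knockout 1 lay between the wild type arrays and knockouts 2 and 3. Without knockout 1 the adjusted p was 0.00362 for Cox6b2 and 0.00652 for Cox4i2, and slide and genotype cannot be told apart there. Over 16 alternatives the adjusted p was 0.00362 to 0.929 for Cox6b2 and 0.00652 to 0.944 for Cox4i2.

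The array also carries circular RNA (circRNA) probes named by position, and 42 of them lay inside 19 of the subunit genes on the same strand and were tested. CircRNAs of one gene share exons, so they are not independent of each other, and whether the linear mRNA adds to their signal was not tested. The log2 change was above 0 in 38 and below 0 in 4, against 22199 above 0 and 12353 below of all 34552 tested circRNAs. The median was 0.20, or 0.03 with slide as a block, against 0.08 over all circRNAs without that block. limma called 0 of the 42, against 0.00289% of all circRNAs, and 3 passed an unadjusted p of 0.05, against 14.8% of all. All values were higher in the knockout in 8 and lower in 0, against 16.5% and 6.82% of all circRNAs, whose host strand was not considered. Probes on the opposite strand were not counted. Of those, the Ndufb10 probe at chr17:24722437-24724263 was lower without overlap, at −0.52 (SE 0.11, limma adjusted p = 0.3075, −0.37 with slide as a block). The Atp5b probe on the opposite strand was higher without overlap, at 0.17.

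Ndufa10, a complex I accessory subunit, held 5 of these circRNAs with changes of 0.28 to 0.39. The one at chr1:92467381-92470985 (read as GRCm38) had the highest change of the 42, with 2.115, 2.550 and 2.592 in the knockout, against 2.063, 1.905 and 2.114 in wild type, a difference of 0.39 (SE 0.15, limma adjusted p = 0.322). Knockout 1 lay just above wild type 3, and the value with slide as a block was 0.09. Atp5b held 5 with 0.20 to 0.35, or 0.01 to 0.13 with slide as a block. Its mRNA probes A, B, C and D gave 0.01, 0.03, 0.17 and 0.11. The lowest was at Ndufs1, chr1:63160880-63165030, with −1.66, −3.28 and −2.71 in the knockout, against −1.64, −1.73 and −1.77 in wild type, a difference of −0.84 (SE 0.38, limma adjusted p = 0.348) in which knockout 1 lay among the wild type values.

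**Figure D5:**
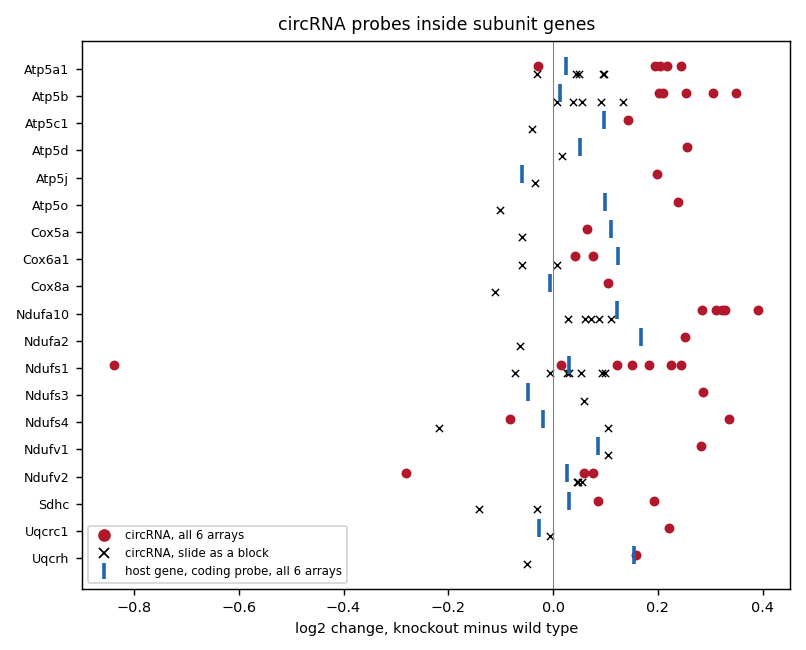
Log2 change, knockout minus wild type (x axis), of the 42 circRNA probes inside 19 subunit genes (rows), over all 6 arrays (filled circles) and with slide as a block (crosses), beside the host gene's coding probe (blue bars). The circles run between −0.84 and 0.39 with 38 above 0, and the crosses between −0.22 and 0.13.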

How the data were processed

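RNA from prefrontal cortex was measured on 6 one-colour Agilent arrays, 3 per genotype. The deposited scanner files hold linear intensity values. The software was Agilent Feature Extraction, with version 12.0.3.1 in the file headers and 10.7 in the submitters' processing notes. Their processed signal was background-subtracted and detrended, per the file headers. The deposited value table of the authors is on a log2 scale, found by comparison with the scanner values (r of at least 0.99986 across 150305 probes), and served as an alternative only. The 75th percentile of the signal was 245 to 269 in the knockout and 278 to 280.3 in wild type, each array had 71.0 to 73.4% of its probes well above background, and 0 probes were saturated. The number of arrays limits the precision.

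Each array's 75th percentile was subtracted from its log2 processed signals, and these were tested by lmFit and eBayes of limma (version 3.58.1, R version 4.3.3, no covariate, two-sided, Benjamini-Hochberg over 105922 tested probes). The 4974 control spots were dropped and outlier-flagged spots set to missing. A probe was tested if well above background on all 3 arrays of a genotype. The value of a gene is that of its tested probe of the highest mean. A subunit gene counted as called if any of its probes was, while the shares of all coding genes used 1 probe each. Scripts were tested on simulated data. Same-numbered samples did not deviate together (correlations of −0.01, −0.05 and 0.04), so the numbers were not used as pairs. CircRNA positions were read as GRCm38, since 97.4% lay inside a coding gene of that build, against 35.9% after a shift of 1 Mb. Genes were named by a rule: in each complex the brightest member and those of the highest and lowest change, the 5 smallest unadjusted p, the 3 widest spreads between probes, Cycs, and the other pathway genes with the largest changes without overlap. Ndufb5, Ndufv1, Ndufa10 and the circRNAs were singled out after their values were seen. The members, lists and tests were chosen with earlier results of these data known. Alternatives were other scalings, background corrections, filters, slide and replicate blocks, other probe summaries and each array left out.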

Additional observations from a re-analysis of the deposited data

How the results depend on the processing

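The count of called subunit genes was 0 under every alternative but one: without knockout 1, 1 probe and 1 gene, Ndufb5, were called, and leaving out each array in turn gave 0 to 1 probes and 0 to 1 genes. The median over the 47 genes was −0.0455 with slide as a fixed block and from slide 1 alone, and 0.00698 to 0.0819 on leaving out arrays. For complex III the block and slide 1 alone gave −0.117 (−0.0106 to 0.0791 on leaving out arrays), and for complex V −0.0631 (0.00745 to 0.152). Complex III was also below 0 with normexp background correction (−0.0111) and without knockout 2 (−0.0106), knockout 3 (−0.0052) or wild type 2 (−0.0101). Complex I ranged from 0.00824 to 0.0961 on leaving out arrays, complex II from 0.0141 to 0.0996 and complex IV from 0.00586 to 0.0627. The authors' value table put complex II at 0.165, and scaling to the array median put complex IV at 0.0803. That scaling moved the median of all coding genes to 0.05, against −0.01.

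The number of genes below 0 was 4 with scaling to the array median, 17 with normexp background correction, 29 with the slide block or slide 1 alone, and 5 to 21 on leaving out arrays. The number of genes without overlap was 2 with scaling to the array median, 8 with quantile normalisation, 7 in the authors' value table, 2 with the mean of a gene's tested probes, 4 to 24 on leaving out arrays, and 25 on slide 1 alone, where knockout 1 only has to lie outside 3 wild type values. The share of subunit genes without overlap was 53.2% on slide 1 alone, 51.1% without knockout 1 and 8.51% to 23.4% without another array. The same shares of all coding genes, counted after seeing the data, were 52.3%, 46.5% and 22.8% to 33.8%. The cause of these moves was not tested. With the replicate block the median over the genes was 0.04 and 0 probes were called. Of 287 values of the 18 named genes under the alternatives, 15 had the other sign and 4 were called, 3 of them without knockout 1. Of these 4, 2 were Cyct, whose knockout values are at background. With 3 arrays per group, the 95% intervals of Ndufs8 and Atp5g1 reached beyond a 1.5-fold change.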
